A study of Mus musculus with 10 samples.

Results

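Regions of the mouse genome open in both somatic cell types of the study, and in neither of its pluripotent ones, are described here. They were chosen by the 4 deposited lists of FAIRE-seq sites themselves. Autosomal sites of all lists were merged where they shared at least 1 bp, and a merged region was kept if it held sites of neural stem cells (NSC) and of embryonic fibroblasts (MEF) and none of embryonic stem cells (ESC) or epiblast stem cells (EpiSC). This rule kept 71554 of 1121520 merged regions, or 6.38%. They are called the somatic-only regions below, and "open" means listed as a site by the authors. Presence in the lists and the scores come from the readout that chose the regions, so these values are a description and carry no test.

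FAIRE-seq sequences the DNA that stays in the aqueous phase when crosslinked, sheared chromatin is extracted with phenol, which is DNA poor in nucleosomes. Active promoters, enhancers and insulators lose nucleosomes when transcription factors bind them. Promoters of widely used genes are open in most cell types, whereas enhancers are mostly open in a few. Neural progenitors and fibroblasts come largely from different germ layers, yet both have left pluripotency, and both can hold elements that become open on leaving it.

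The ESC were E14 (ES-E14Tg2a) cells on gelatin in N2/B27 medium with 1 µM MEK inhibitor PD032590, 3 µM GSK3 inhibitor CH99021 and 1000 U/ml LIF, which hold them in the ground state. The EpiSC were E3 cells, which stand for the primed state, expanded with 5 ng/ml FGF2 on mitomycin-treated fibroblast feeders and moved off them 2 days before crosslinking into medium conditioned by such fibroblasts. The NSC were ES-derived neural progenitors in N2B27 with 10 ng/ml each of FGF2 and EGF. The MEF came from E16.5 embryos and were kept in 10% FBS. Strain, sex, passage and the number of embryos are not stated for any group, and ESC and EpiSC are 1 line each. The source label of the MEF samples reads mNSC, against their title and cell type. The labels give 10 samples in 5 groups of 2, the fifth being sheared genomic DNA, and 1 list per cell type was used, which the deposit ties to replicate 2. The autosomal lists held 438802 ESC, 387312 EpiSC, 551649 NSC and 424647 MEF sites. Read depth is unknown, so a region missing from a list lies below the authors' threshold and is not shown to be closed. The spread between replicates was not measured, since 1 list per cell type was used, and in its place the range over the 19 autosomes is given, which shares the same libraries. Cell identity was not checked at marker genes, since no mm9 gene annotation was used here.

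How often openness shared by the somatic cells was missing from the pluripotent ones was asked first. Of 157680 regions with sites of both NSC and MEF, the 71554 somatic-only regions made up 45.4% (exact 95% interval 45.1 to 45.6, counting error only). A further 14.5% were also open in EpiSC alone, 10.9% in ESC alone and 29.2% in all 4 cell types. The share of somatic-only regions ran from 31.5% to 56.1% over the autosomes. In the mirror case, 61376 of 159733 regions open in both ESC and EpiSC, or 38.4%, had neither somatic cell type. That order changed with the length of the lists. With the 387312 highest-scoring autosomal sites of each list, the somatic share was 47.2% and the pluripotent share 48.7%. With the upper 50% of each list they were 54.9% and 49.3%.

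Somatic-only regions took in 13.6% of the NSC sites and 17.6% of the MEF sites. Most were simple: 65909 (92.1%) joined 1 NSC site with 1 MEF site, 3263 held 2 or more NSC sites and 2905 held 2 or more MEF sites. The merged region had a median width of 516 bp (quartiles 382 and 718), with extremes of 54 and 6859 bp, and all of them together covered 43.2 Mb. Median width lay between 496 and 577 bp on every autosome. NSC-only regions had a median of 286 bp and MEF-only regions of 282 bp, while regions open in all 4 cell types had 1376 bp. Joining sites of several lists widens a region by construction, so these widths are not like for like.

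Within the 1-to-1 regions the NSC and MEF sites lay largely on top of each other. The NSC site was 344 bp wide and the MEF site 326 bp (medians), and they shared 200 bp (quartiles 130 and 289), which was 93.3% of the shorter site. At least 50% of the shorter site was shared in 83.8% of them. The MEF site lay wholly inside the NSC site in 23.1%, and the NSC site inside the MEF site in 18.02%. Midpoints were 105 bp apart in the median and within 50 bp in 26.3%. The counterpart regions of ESC and EpiSC alone had sites of 408.5 and 378 bp, shared 258 bp and had midpoints 90 bp apart. The shared part was 99.4% of the shorter site there. In regions of EpiSC and NSC alone it was 95.3%, with midpoints 94.5 bp apart. The close overlap was thus not particular to the somatic-only regions.

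The members at the edge of the rule had scores near the middle of their lists. In 649 somatic-only regions the NSC and MEF sites shared 10 bp or less, with a median score percentile of 52.6 in the NSC list and 54.2 in the MEF list. Just outside lay 626 pairs of an NSC-only and a MEF-only region less than 10 bp apart, with medians of 53.4 and 53.5. An ESC or EpiSC site ended less than 10 bp from 238 somatic-only regions, whose medians were 50.5 and 46.4. In 160 regions that the rule left out, the pluripotent and somatic sites shared 10 bp or less, with medians of 50.8 and 58.8.

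The score that the authors gave each site was then described, always within its own list, since a common scale is not stated. NSC sites in somatic-only regions had a median score of 4.61 (quartiles 2.77 and 7.28), against 3.96 in NSC-only regions and 4.68 in regions open in all 4. MEF sites in somatic-only regions had a median of 3.64 (quartiles 2.33 and 5.31), against 3.35 in MEF-only regions and 3.46 in regions open in all 4. Sites of somatic-only regions thus scored above those of NSC-only and MEF-only regions by median. Among sites of 250 to 350 bp the medians were 4.02, 3.61 and 2.92 in NSC and 3.28, 3.05 and 2.48 in MEF, in the same order of classes. At this width the sites in somatic-only regions scored highest of the 3 classes in both lists.

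Taken over each whole list, the share of sites that lay in somatic-only regions grew with the score. In the NSC list it was 7.97% among the 10% of sites with the lowest scores and 19.1% among the 10% with the highest. In the MEF list it was 10.9% and 20.8%. The steps were not even, and in MEF the share dipped from 17.81% to 16.47% between the fourth and the fifth 10%. Among regions open in both somatic cell types the course was another. Grouped by the lower of their NSC and MEF percentiles, the somatic-only share rose from 34.6% in percentiles 0 to 10 to 52.0% in 30 to 40 and then fell to 34.7% in 90 to 100. The share open in all 4 cell types was 34.7%, 22.6% and 45.3% in the same groups. In 90 to 100, regions were thus more often open in all 4 cell types than in the somatic ones alone. That order was reversed among regions with 1 site of each list. There the somatic-only share went from 57.4% in 30 to 40 to 48.3% in 90 to 100. The share open in all 4 went from 17.3% to 30.7%.

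Regions strong in 1 somatic cell type tended to be strong in the other, though loosely. The Spearman correlation of the NSC and MEF percentiles, taking the best site of each list, was 0.33 over the 71554 somatic-only regions and ran from 0.29 to 0.36 over the autosomes. It was 0.40 in regions open in all 4 and, between ESC and EpiSC percentiles, 0.25 in regions of those alone. The NSC and MEF sites of a region share its sequence and part of its width, and whether the lists were called independently of each other is not stated. Both percentiles were at or above 50 in 28303 somatic-only regions (39.6%) and both below it in 16241 (22.7%). Of 10428 with an NSC percentile of 90 or more, 2562 (24.6%) also had a MEF percentile of 90 or more, while 12.2% of all somatic-only regions did. Opposed scores were found too: 2551 had an NSC percentile of 90 or more with a MEF percentile below 50, and 1917 the reverse.

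**Figure D1:**
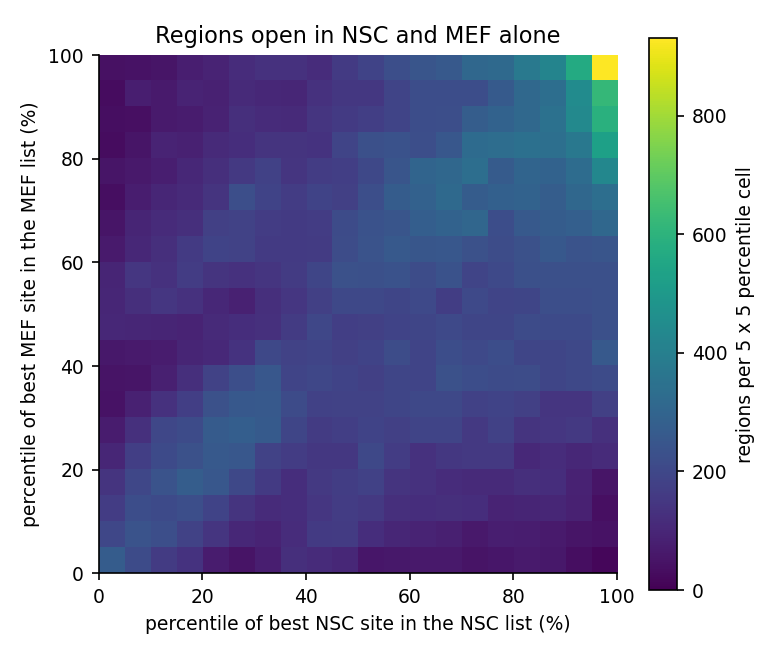
Number of somatic-only regions by the score percentile of their best NSC site (horizontal axis, %) and best MEF site (vertical axis, %), in cells of 5 by 5 percentiles; colour gives regions per cell. The fullest cell is the upper right one, with 930 regions at or above the 95th percentile of both lists, and the corners that are high in 1 list and low in the other are sparse.

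The 5 somatic-only regions with the highest lower-of-the-2 percentile were named by rule, in mm9 coordinates. Their scores stood far above the list medians of 3.95 in NSC and 3.32 in MEF. The first, chr4:13443940-13445440, held a MEF site of 980 bp with a score of 21.1. Inside it lay an NSC site at 13444106 to 13444513 with a score of 36.4, and a weak NSC site of score 2.33 began just before the MEF site ended. Within 50 kb of its midpoint there were 46 NSC and 30 MEF sites but 5 ESC and 15 EpiSC sites.

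The second, chr13:89682487-89683180, had an NSC site of 375 bp with a score of 27.0, a small one of 116 bp with a score of 5.56, and a MEF site of 674 bp with a score of 17.3 over both. The third, chr7:124447074-124448253, paired an NSC site of score 24.8 with a MEF site of score 19.4 that began 11 bp further on and ran to 1169 bp. The fourth, chr5:4194048-4194484, was the narrowest of the 5 at 437 bp, and its NSC site (23.9) and MEF site (16.7) ended 9 bp apart. In the fifth, chr4:87497968-87498818, a MEF site of 851 bp with a score of 15.9 enclosed NSC sites of 164 bp (31.3) and 165 bp (7.38). Pluripotent cells had sites nearby in several cases. The nearest ESC site was 231 to 11200 bp away and the nearest EpiSC site 563 to 7657 bp.

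Other extremes were named by their percentile in 1 list, whatever the other list held. The 3 somatic-only regions with the highest NSC scores were chr13:83874795-83875109, chr10:57542119-57542872 and chr8:7439246-7440782, with NSC scores of 40.55, 38.05 and 37.4 and MEF scores of 6.46, 5.72 and 7.52. Their MEF sites thus lay between percentiles 81.9 and 92.3 of the MEF list. The 3 with the highest MEF scores were chr11:86442615-86443817 (28.1), chr5:67361899-67362472 (23.0) and chr17:78691210-78691863 (21.9). The first of these had an NSC score of 17.0 and the second 19.6, at percentiles 99.1 and 99.6 of the NSC list, so both were high in both lists. The region on chromosome 17 scored 3.72 in NSC, at percentile 46.8, with 47 bp shared between its sites, and it had an EpiSC site 106 bp and an ESC site 236 bp away.

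Whether the somatic-only regions stood apart from pluripotent sites or beside them was asked next. The gap to the nearest ESC or EpiSC site had a median of 1461 bp (quartiles 538 and 3762), and 39.7% of the regions (95% interval 39.32 to 40.04) had such a site within 1 kb. NSC-only and MEF-only regions had 38.2% and 36.0%, with median gaps of 1585 and 1753 bp. On the autosomes the share within 1 kb ran from 32.6% to 52.4%. Many somatic-only regions thus lay close to a site of the pluripotent cells, as did many NSC-only and MEF-only regions. Leaving out all those within 1 kb left 43163. EpiSC sites were the nearer ones although their list was the shorter. The median gap was 2271 bp to EpiSC and 3473 bp to ESC, and 61.2% of the regions lay closer to an EpiSC site. The EpiSC had grown on fibroblast feeders, and the part of this in the gap was not tested.

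Somatic-only regions further from pluripotent sites had higher scores in both lists. The median NSC percentile was 55.1 for the 6961 regions within 200 bp of an ESC or EpiSC site, 56.5 from there to 1 kb, 59.7 up to 5 kb, 64.3 up to 20 kb and 67.5 for the 2125 regions beyond 20 kb. The median MEF percentile took the same course, from 54.4 through 55.4, 57.3 and 61.0 to 62.4. Width went the other way, from 525 to 475 bp. Regions beyond 5 kb lay 8.77 percentile points above those within 1 kb in NSC and 6.09 in MEF. This difference shrank to 3.38 and 3.72 with lists of equal length, and to 1.21 and 1.39 with the upper 50% of each list, on the percentiles of the full lists. In the full lists it was positive on 19 of 19 autosomes, by 3.405 to 16.66 percentile points in NSC and by 1.77 to 12.9 in MEF. It was not particular to these regions. NSC-only regions went from 43.6 to 62.3 in the NSC list, and MEF-only regions from 45.0 to 58.1 in the MEF list.

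**Figure D2:**
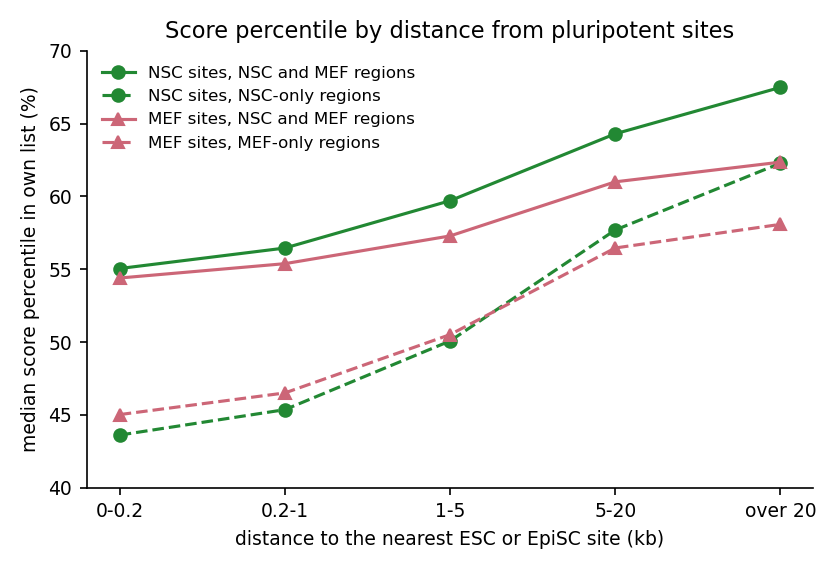
Median score percentile (vertical axis, %, drawn from 40 to 70) of the best NSC site (green) or MEF site (red) of a region, by distance to the nearest ESC or EpiSC site (horizontal axis, kb). Solid lines are somatic-only regions and dashed lines regions of NSC or MEF alone; all 4 lines rise with distance, and the solid lines lie above the dashed ones of the same colour.

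The most remote somatic-only region, singled out after its values were seen, was chr16:61341933-61342469. Its nearest ESC site was 278005 bp and its nearest EpiSC site 351285 bp away. NSC scored 6.90 and MEF 3.396 there, and 8 NSC and 5 MEF sites lay within 50 kb.

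Somatic-only regions were spread over all autosomes, at 21.4 per Mb on chromosome 8 to 37.6 per Mb on chromosome 18, with a median of 28.9. Their share of the regions open in both somatic cell types was highest on chromosomes 18 (56.1%) and 12 (55.0%) and lowest on chromosomes 11 (31.5%), 17 (35.2%) and 8 (37.6%). These shares went with the density of pluripotent sites, against which the rule selects. Chromosomes 18 and 12 held 104 and 101 EpiSC sites per Mb, where the median autosome had 149, and chromosome 11 held 262. On chromosome 8 the ESC list was dense, with 253 sites per Mb against a median of 172. Chromosome 17 had 201 ESC and 197 EpiSC sites per Mb. The match was not complete: chromosome 7 held 113 EpiSC sites per Mb, yet its share of 43.4% lay below the median of 47.2%. The somatic lists were steadier, between 201 and 265 sites per Mb in NSC and between 141 and 221 in MEF. Both were also densest on chromosome 11.

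**Figure D3:**
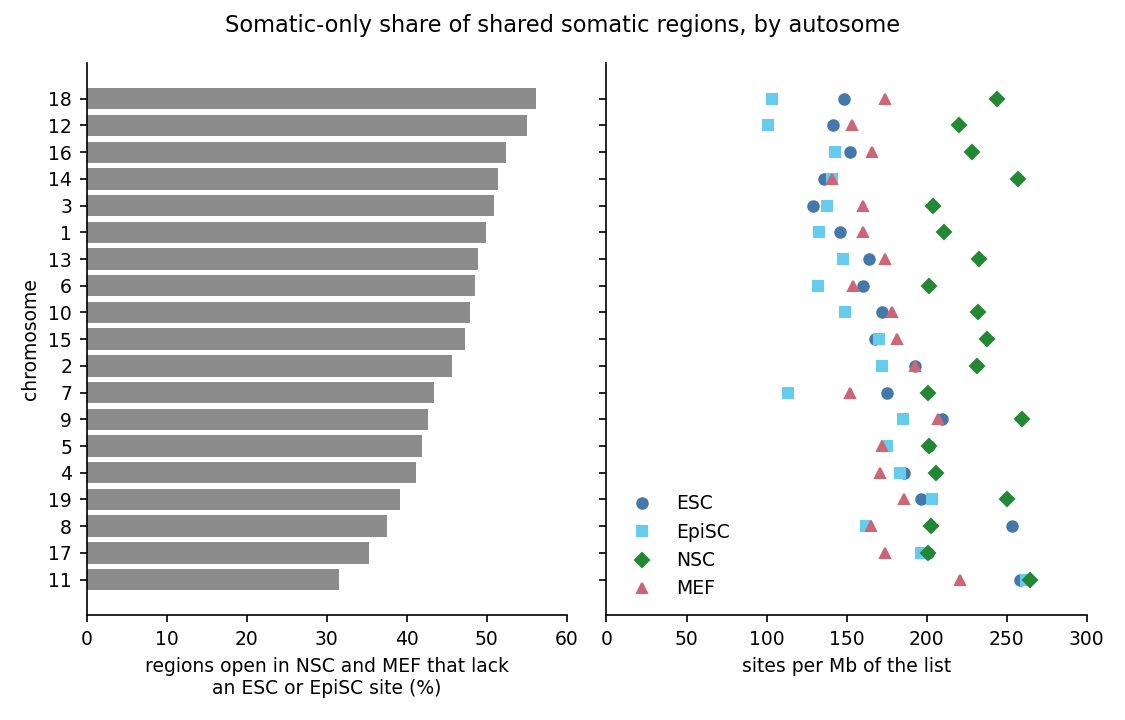
Left, share of regions open in both NSC and MEF that lack an ESC or EpiSC site (horizontal axis, %), by autosome in order of that share; right, sites per Mb of each list on the same autosomes. The share falls from 56.1% on chromosome 18 to 31.5% on chromosome 11, where the sites of all 4 lists are at their densest.

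At the scale of 1 Mb the differences were wider than between chromosomes, though a bin also carries more counting error. In the 1450 bins with at least 50 regions open in both somatic cell types, the somatic-only share had a median of 41.1% (quartiles 26.9 and 58.0) and extremes of 0% and 99.1%. It was 10% or less in 57 bins and 90% or more in 13. At the low end, chr7:19000001-20000000 had 55 regions open in NSC and MEF and every one was also open in ESC or EpiSC, which had 293 and 185 sites there. On chromosome 10 the neighbouring bins from 79000001 to 81000000 had 1 somatic-only region each, of 64 and 62. These 3 bins were dense in pluripotent sites and not in somatic ones, with 143 to 153 NSC and 113 to 128 MEF sites where the median autosome had 229 and 172 per Mb. At the high end, 113 of 114 were somatic-only in chr14:110000001-111000000, which had 711 NSC and 140 MEF sites beside 5 ESC sites and 1 EpiSC site. Of the 13 bins with the highest shares, 5 lay on chromosome 14. Others were chr7:94000001-95000000 (59 of 61), chr13:27000001-28000000 (58 of 63) and chr12:51000001-52000000 (67 of 73). These last 3 bins held up to 18 ESC and 29 EpiSC sites each.

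**Figure D4:**
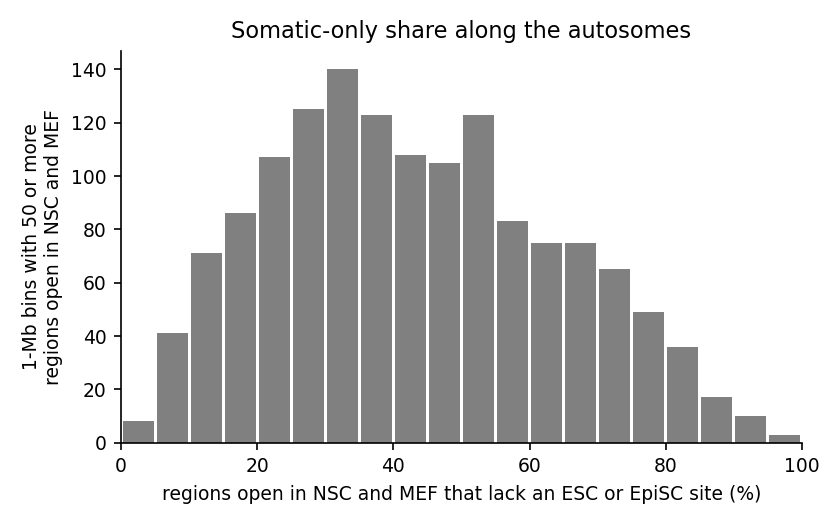
Number of 1-Mb autosomal bins (vertical axis) by the share of their regions open in NSC and MEF that lack an ESC or EpiSC site (horizontal axis, %), for the 1450 bins with 50 or more regions open in NSC and MEF. The shares spread over the whole range around a median of 41.1%, with 13 bins at 90% or more.

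Somatic-only regions often lay near one another. The median gap between neighbouring ones was 12024 bp (quartiles 3868 and 31974), 9.44% of gaps were at most 1 kb and 7.02% exceeded 100 kb. The region next to a somatic-only region was another one in 11.6% of cases, against their share of 6.38% of all regions. It was an NSC-only region in 32.5% and a MEF-only region in 19.2%, against 23.4% and 16.2% of all regions. In 36.7% it held an ESC or EpiSC site, against 54.0% of all regions. NSC-only regions had 38.3% and MEF-only regions 39.9% of such neighbours. These 2 classes had neighbours of their own kind more often than the shares of all regions. NSC-only regions had 35.6% NSC-only neighbours, against 23.4%, and MEF-only regions 27.6% MEF-only neighbours, against 16.2%. Beside NSC-only regions 17.3% of neighbours were MEF-only, and beside MEF-only regions 24.9% were NSC-only, both near the shares of all regions. Next to regions of ESC and EpiSC alone, 2.35% of neighbours were somatic-only.

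Of 24731 windows of 100 kb, 17820 (72.1%) held a somatic-only region, and the 1441 windows with 10 or more held 26.2% of them. These windows had a median of 51 NSC and 33 MEF sites, against 20 and 16 over all windows, those without a site included. Each somatic-only region needs an NSC and a MEF site, so choosing windows by these regions raises both medians by construction. The ESC median of the chosen windows was 7, against 11 over all windows, and their EpiSC median 13, against 14. The windows with the most were chr15:11000001-11100000 with 31, chr10:37300001-37400000 with 30 and chr12:15700001-15800000 with 29. In these the NSC list had 69, 81 and 80 sites and the MEF list 57, 57 and 46, while ESC had 4, 6 and 1 and EpiSC 6, 12 and 8. The windows chr4:63700001-63800000 and chr5:13400001-13500000 followed with 28 each, and chr4:63900001-64000000, close to the former, had 27.

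Stretches of sequence between successive pluripotent sites were examined after these values were seen. Of the somatic-only regions, 12647 (17.7%) were the sole region between the pluripotent sites on either side, and 44.8% shared their stretch with another somatic-only region. A total of 56 stretches held 10 or more. The richest lay on distal chromosome 14, from 110343157 to 110870935: 58 somatic-only regions, 318 NSC-only and 12 MEF-only regions in 527779 bp without an ESC or EpiSC site. In the 300 kb on either side the lists had 5 ESC, 2 EpiSC, 456 NSC and 81 MEF sites. Outside that segment the richest was on chromosome 10, from 37545681 to 37698579, with 20 somatic-only, 48 NSC-only and 21 MEF-only regions in 152899 bp, and its flanks held 10 ESC and 40 EpiSC sites. The shortest of the leading ones, chr4:63935060-63981825, packed 18 somatic-only regions, 16 of NSC alone and 3 of MEF alone into 46766 bp.

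**Figure D5:**
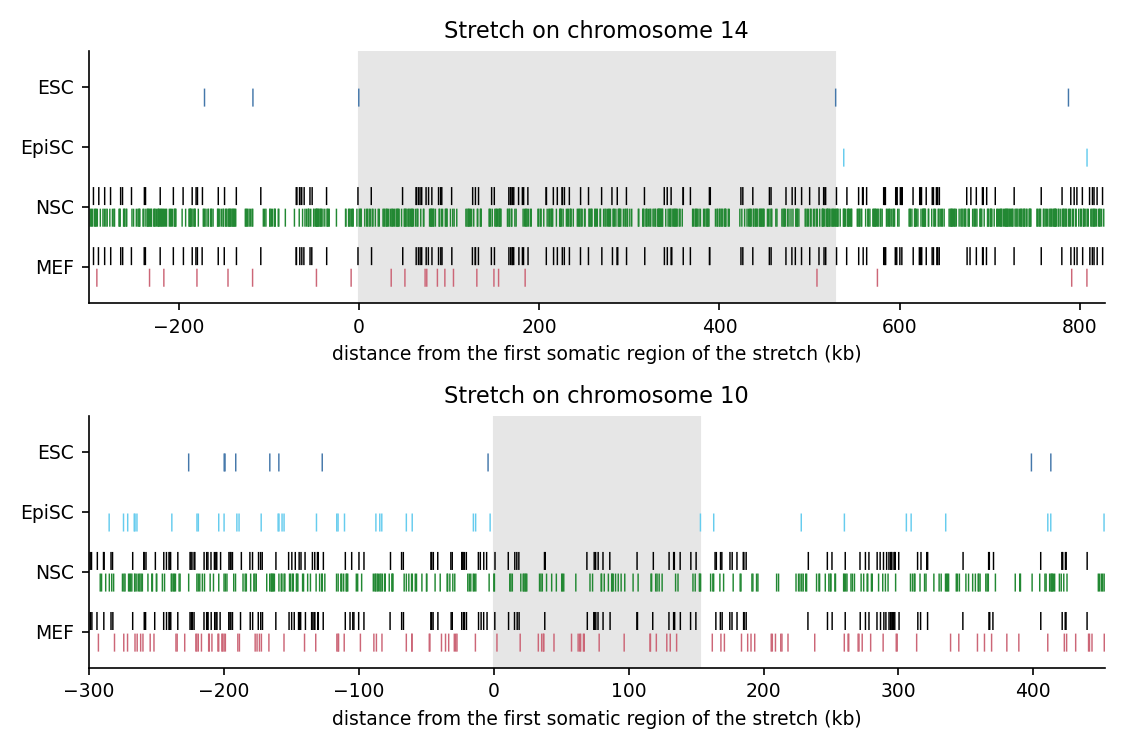
Midpoints of sites of each list (rows) in the stretch of chromosome 14 and of chromosome 10 with the most somatic-only regions (grey) and 300 kb on either side, by distance from the start of the stretch (horizontal axis, kb). Black ticks are sites in somatic-only regions and coloured ticks all other sites; on chromosome 14, 133 of the 156 MEF sites shown are black, amid many NSC sites, whereas on chromosome 10 both somatic lists have sites of their own and EpiSC sites flank the stretch.

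Distal chromosome 14, from 86000001 to 121000000, is dense in NSC sites and was looked at separately. It held 2030 somatic-only regions, or 58.0 per Mb against 28.5 per Mb elsewhere on the autosomes, and they made up 65.7% of its regions open in both somatic cell types, against 45.0%. The higher scores were on the NSC side. The median NSC percentile of these regions was 87.7, against 58.5 elsewhere, while the MEF percentile was 54.4, against 57.3. The 3 widest somatic-only regions of the genome also lay there: chr14:115811657-115818515, chr14:86846676-86852836 and chr14:101004234-101010090, at 6859, 6161 and 5857 bp. Each was 1 NSC site over 2 MEF sites. Their NSC scores were 16.501, 14.517 and 25.658, and their MEF scores 5.28, 13.6 and 2.44. The segment held 2.84% of the somatic-only regions and 11.6% of those more than 20 kb from a pluripotent site. Without it the median NSC percentile still went from 54.7 within 200 bp to 64.7 beyond 20 kb.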

How the data were processed

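FAIRE-seq libraries were, per the labels' protocols, amplified by 15 cycles of PCR, size-selected at 150 to 400 bp on agarose gels and sequenced on an Illumina Genome Analyzer. CASAVA 1.8 and mouse build mm9 are named in the submitters' processing notes. Neither aligner nor site-calling settings, nor any use of the genomic control or pooling of replicates, are given in the sources used here. The deposited lists give each site's position, a score computed by the authors, whose unit is not stated, and a display value, which was within 1 of the score times 100, cut at 1000. Nothing states whether samples came from separate cultures.

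Sites were read as 0-based intervals and printed 1-based. Merged regions and members equalled those of bedtools 2.31.1, and the classing was tested on simulated lists. A score percentile is the mid-rank of a site within its autosomal list, and a region takes its best site of each list. Shares carry exact (Clopper-Pearson) 95% intervals for counting error only. No test between cell types is possible with 1 list each. Named regions were those with the highest lower-of-the-2 percentile (5), the highest percentile in NSC (3) and in MEF (3), the greatest width (3), and the 3 windows of 100 kb with the most members. The members, the distal segment of chromosome 14 and all rules were chosen with earlier results of these data known. Genes, start sites, motifs and sequences were not analysed here, as the reference tables at hand are on another build. Alternatives varied the joining of sites, score thresholds, list lengths, lists and chromosomes. The work was done in Python 3.11.15 (scipy 1.17.1, pandas 2.3.3, numpy 2.4.6) and drawn with matplotlib 3.10.9.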

Additional observations from a re-analysis of the deposited data

Results flagged for a closer look

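The X chromosome lies outside the rule, which takes autosomes alone, and was not used in the comparisons. It had 553 regions with NSC and MEF sites and no ESC or EpiSC site, of 841 with sites of both somatic cell types (65.8%, exact 95% interval 62.4 to 69.0, counting error only). The EpiSC list had 0 sites on this chromosome and the ESC list 2992, beside 4219 in NSC and 7244 in MEF. With no EpiSC site on it, the rule there asks only that ESC have none. On the autosomes, with the EpiSC list not used, the value was 59.9%. The lowest autosomal densities were 129 ESC, 201 NSC and 141 MEF sites per Mb. The counts above are for the whole X chromosome, which was far sparser, so these shares are not like for like. Whether the chromosome was left out of the EpiSC list or had no site there is not stated. The sex and number of X chromosomes of the cells are not stated, and their part in this was not tested.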

How the results depend on the processing

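The number of somatic-only regions, 71554, became 34245 with the upper 50% of each list by score, 43163 without those within 1 kb of a pluripotent site and 28425 with the upper 50% of the NSC and MEF lists alone. Under the other 9 alternatives it stayed within 1.5 times, up to 94476 when the EpiSC list was not used in the rule. Joining sites at 50% of the shorter, joining sites under 200 bp apart, the upper 50% of each list, lists of equal length, leaving out members near pluripotent sites, asking NSC and MEF to share 100 bp and leaving out distal chromosome 14 gave, in this order, 5.42%, 7.41%, 5.32%, 5.44%, 3.85%, 5.42% and 6.31% of merged regions. As a share of regions open in both somatic cell types they gave 45.9%, 41.7%, 54.9%, 47.2%, 27.4%, 44.6% and 45.0%. The median width was 499, 598, 571, 517, 511, 521 and 513 bp. The share with a pluripotent site within 1 kb was 44.0%, 31.2%, 24.4%, 37.1%, 40.1% and 40.1%, the fifth alternative being left out since it removes them all.

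Alternatives chosen after the data were seen gave shares of regions open in both somatic cell types of 59.9% without the EpiSC list in the rule, 56.3% without the ESC list, 59.8% with the upper 50% of the ESC and EpiSC lists alone, 45.5% with that of the NSC and MEF lists alone and 45.8% without chromosome 8. The rise of score percentile with distance from pluripotent sites was also tried only after the data were seen. It kept its direction in all 22 values, from 1.21 to 11.6 percentile points beside 8.77 in NSC and 6.09 in MEF, and was smallest where low scores had been removed. The 22 values re-use the same 4 lists, so their number adds no independent evidence. Fewer sites change most of these values by construction, and beyond that the cause was not tested. No paired analysis was possible because only 1 list per cell type was used, and for the same reason no replicate was left out. The motif window and the reach around start sites, fixed as further settings, were not run for want of an mm9 reference. Unknown depth limits every count of absent sites.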
